A study of Mus musculus with 30 samples.

Results

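Within the microRNA-137 knockout (cKO), regions specific to the knockout that were listed for RNA polymerase II phosphorylated at serine 5 (Ser5P) were compared with those listed for total RNA polymerase II (Pol II). The members were all 6163 regions of the cKO Ser5P list and all 4647 regions of the cKO Pol II list, 10810 of the 22399 regions in the 10 lists of the series. A Ser5P region was called shared where at least 1 base overlapped a Pol II region of the cKO list, and alone otherwise, and Pol II regions were treated likewise. The question was which genes, and which parts of genes, carried a knockout-specific region of one polymerase antibody without the other.

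The libraries came from sorted primary microglia, the resident macrophages of the brain, of C57BL/6J mice 8 weeks old. Animals of both genotypes carried the Tmem119-CreERT2 allele, in which a tamoxifen-activated Cre is driven from the microglial gene Tmem119, and both received tamoxifen on 7 consecutive days. The cKO animals were Mir137loxP/loxP and the controls (cWT) were Mir137+/+. Each combination of genotype and antibody had 3 replicates from about 100000 cells per genotype. Whether a replicate stands for 1 animal is not stated in the labels. The assay described in the protocol is CUT&Tag, in which an antibody tethers a transposase that inserts adapters near the bound protein, although the series calls it ChIP-seq.

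RNA polymerase II carries a long tail of repeated heptapeptides on its largest subunit, and the phosphorylation of that tail follows the transcription cycle. The Cdk7 kinase of the general factor TFIIH phosphorylates serine 5 soon after initiation, this form recruits the capping enzymes, and it is typically concentrated close to gene starts where polymerase pauses. Release into the gene body is driven by Cdk9 (P-TEFb), and an antibody to total polymerase is meant to recognise the enzyme at every step. In microglia, Pu.1 binds many of the enhancers and promoters from which polymerase transcribes myeloid genes.

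Several properties of the lists set what the comparison can show. The protocol prints 1 catalogue number, 39133, beside Pol II, Pol II Ser5P and also H3K27ac, so that the labels alone do not separate these reagents. The lists hold 1 line per region and no value per replicate, so variation between animals cannot be estimated, and every p-value of a Fisher test describes the lists. A region missing from a knockout-specific list may still hold polymerase in both genotypes. More cells with polymerase at a site and more polymerase per cell cannot be told apart in pooled cells. The null hypothesis behind the authors' deposited p-value is not stated. Its median was 0.724 over the cKO Ser5P list and 0.789 over the cKO Pol II list, and the deposited adjusted p was under 0.05 in 1 Ser5P region (0.0162%) and 2 Pol II regions (0.043%). No region of either list lay near Mir137 itself. The nearest lay 1349 kb away, so these lists gave no reading of the targeted gene. Among markers of the labelled cell type, 13 of 24 microglia and macrophage genes carried a region of either antibody, beside 26.8% of all 21887 protein-coding genes and against 0 of 10 for neurons, 0 of 10 for T, B and NK cells, 1 of 10 for the oligodendrocyte lineage (Mbp), 1 of 9 for border macrophages and monocytes (Mrc1), 2 of 8 for astrocytes (Slc1a2 and Slc1a3) and 2 of 8 for endothelium and pericytes (Pecam1 and Kdr). The astrocyte and endothelial counts lay near the share over all genes. A region of a list is not an expression level, and what part other cells had in any result was not tested.

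The lists overlapped in part. Of the 6163 Ser5P regions, 2394 (38.8%, exact Clopper-Pearson 95% interval 37.6 to 40.1) were shared and 3769 (61.2%, 59.9 to 62.4) stood alone. Of the 4647 Pol II regions, 2380 (51.2%, 49.8 to 52.7) were shared and 2267 (48.8%, 47.3 to 50.2) stood alone. These intervals, like the others below, cover the counting of regions only. The gap between the shares went with the unequal length of the lists, since the number of shared regions was nearly the same in both. With both lists held to the 4647 regions of smallest deposited p, 40.0% of the Ser5P and 39.9% of the Pol II regions were shared. These nearly equal shares are no separate check of the gap. Most shared regions had a single partner, so lists of equal length had to give nearly equal shares.

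Shared regions coincided closely. The 2458 overlapping pairs had a median overlap of 287 bp, and the median pair covered 97.4% of its shorter region. Their midpoints lay a median of 59 bp apart, and the Ser5P region was the wider in 1164 pairs (47.4%). Regions that stood alone were mostly far from the other list. The median gap from a Ser5P region standing alone to the nearest cKO Pol II region was 55.8 kb, and 4.64% lay within 1 kb. For Pol II regions standing alone the gap to the nearest Ser5P region was 40.8 kb, and 6.40% lay within 1 kb. Few of the unshared regions were thus near misses of an overlap. Median widths were 377 bp for Ser5P alone, 360 bp for Ser5P shared, 333 bp for Pol II alone and 374 bp for Pol II shared. Some neighbouring lines split 1 stretch of signal: 358 Ser5P regions (5.81%) and 236 Pol II regions (5.08%) directly abutted another region of their own list.

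Sharing ran differently down each list when regions were ordered by deposited p. In the Ser5P list, decile 1, with the smallest p, had 124 of 616 regions shared (20.1%, 17.0 to 23.5), decile 5 had 48.4%, and decile 10 had 30.3%. Sharing in the Pol II list went from 305 of 464 (65.7%, 61.2 to 70.0) in decile 1 to 31.2% in decile 10. The lists thus differed in direction up to decile 5, and after it sharing mostly fell in both. Most Ser5P regions of decile 1 were therefore without a listed Pol II partner, while most Pol II regions of decile 1 had a Ser5P partner. Among the 78 Ser5P regions with a deposited p under 0.05, 10 were shared (12.8%, 6.32 to 22.3), against 8 of 17 Pol II regions (47.1%, 23.0 to 72.2), fewer than in decile 1 of that list. These values describe the lists, since the p-values of different lists may not mean the same.

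**Figure D1:**
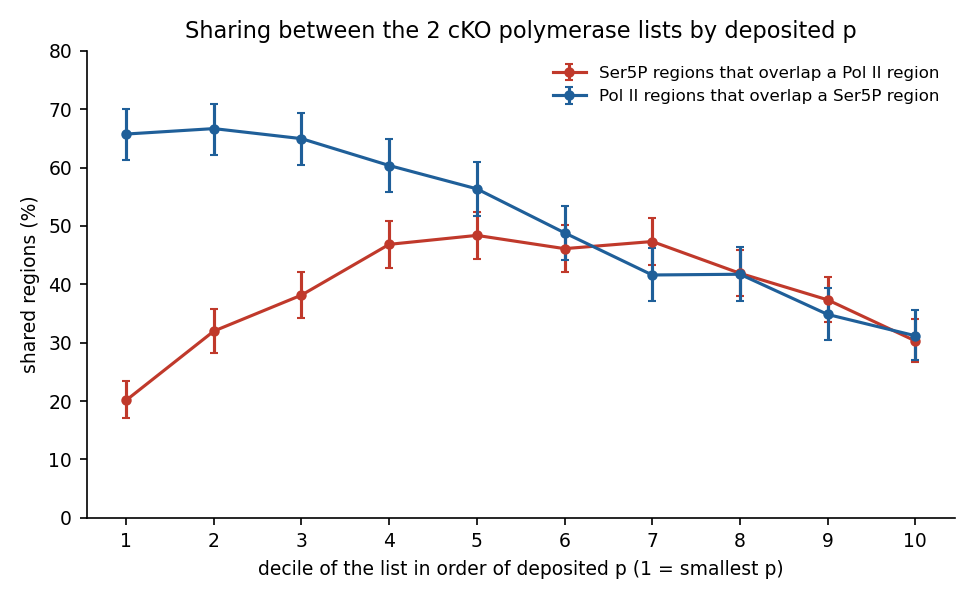
Share of regions (%, vertical axis) that overlap a region of the other cKO polymerase list, by decile of each list in order of deposited p (horizontal axis, 1 for the smallest p). Points are shares and bars are exact 95% intervals; Ser5P starts at 20.1% and Pol II at 65.7%, and they end at 30.3% and 31.2%.

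At the smallest deposited p, single regions of each antibody stood without the other. The first Ser5P region lay outside any protein-coding gene on chromosome 17 (13305880 to 13306338, mm10, deposited p 8.89e-06) and overlapped a cWT H3K27ac region. The next lay over Azi2, which encodes an adaptor of the TBK1 kinase, and its neighbour Zcwpw2 (chromosome 9, 118040183 to 118041213, p 4.66e-04). Further Ser5P regions without Pol II lay at Homer1, a scaffold protein of synapses, at Akap5, an anchor of protein kinase A, and at Sbno1. In the Pol II list the first region was again outside genes (chromosome 3, 149052452 to 149052991, p 3.40e-07) and overlapped a cWT H3K4me3 region. The first Pol II region in a gene was at Rnf34, a ubiquitin ligase (chromosome 5, 122849683 to 122850844, p 7.09e-04), with no Ser5P region. Of the 12 smallest p-values in each list, 10 Ser5P regions and 6 Pol II regions stood alone.

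Ser5P regions standing alone lay at gene starts more often than Pol II regions standing alone, and less often in gene bodies. Each region was placed in the first part it touched of a protein-coding gene: within 2 kb of a start, within 2 kb of the 3' end, elsewhere in the gene body, or outside. The alone classes are not the whole lists, since 38.8% of Ser5P but 51.2% of Pol II regions were shared, with more of them at starts. Shared or alone, 52.1% of placed Ser5P and 50.9% of placed Pol II regions named secondary in the files touched a start. For the remaining regions, named primary, these shares were 68.0% and 63.3%. Of 3127 Ser5P regions standing alone that could be placed, 1583 (50.6%, 48.9 to 52.4) touched a start, against 858 of 1893 Pol II regions standing alone (45.3%, 43.1 to 47.6). The difference was 5.30 percentage points (odds ratio 1.24, 95% interval 1.10 to 1.39, adjusted p = 0.00121 by two-sided Fisher's exact test over 4 gene parts), and 9.84 points in lists of equal length (exact test, adjusted p = 7.43e-11). Gene bodies held 726 Ser5P regions (23.2%) and 512 Pol II regions (27.05%). The difference was -3.83 points (odds ratio 0.815, 0.715 to 0.930, exact test, adjusted p = 0.00473), and -6.45 points in lists of equal length (adjusted p = 4.65e-07). Making the lists equal dropped only Ser5P regions of large deposited p, which touched starts less often. The larger differences in lists of equal length therefore cannot be read as stronger ones. With both lists cut by the same share, to their regions of smaller p, the differences were 5.44 and -3.77 points (exact test, adjusted p = 0.0143 and 0.0215).

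The 3' ends and the space outside genes did not pass the test. The 3' ends held 136 Ser5P regions (4.35%) and 67 Pol II regions (3.54%), with an adjusted p of the exact test of p = 0.161. Outside genes lay 682 (21.8%) and 456 (24.1%), a difference of -2.28 points with adjusted p = 0.0870 in the exact test. Among the regions named primary in the files, a word the sources used here do not explain, the start difference was 3.90 points and the body difference -0.646, both with adjusted p = 1 in the exact test. With windows of 500 bp in place of 2 kb the body difference was -2.40 points (exact test, adjusted p = 0.102).

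Shared regions lay at starts more often than regions of either antibody standing alone. Starts held 57.3% of the shared Ser5P regions (55.1 to 59.5) and 57.0% of the shared Pol II regions (54.7 to 59.2), and gene bodies held 19.6% and 19.8%. The median distance from a midpoint to the nearest annotated start was 402.5 bp for Ser5P shared and 470 bp for Pol II shared. It was 1883 bp for Ser5P alone and 5483 bp for Pol II alone. Pol II regions without a Ser5P partner were thus the most distant from starts of the 4 classes. In every class the midpoints were most dense in the first 500 bp downstream of the start, which held 27.7% of Ser5P alone, 34.8% of Ser5P shared, 24.1% of Pol II alone and 33.3% of Pol II shared. The 500 bp upstream held 15.2%, 16.2%, 14.0% and 17.1%.

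**Figure D2:**
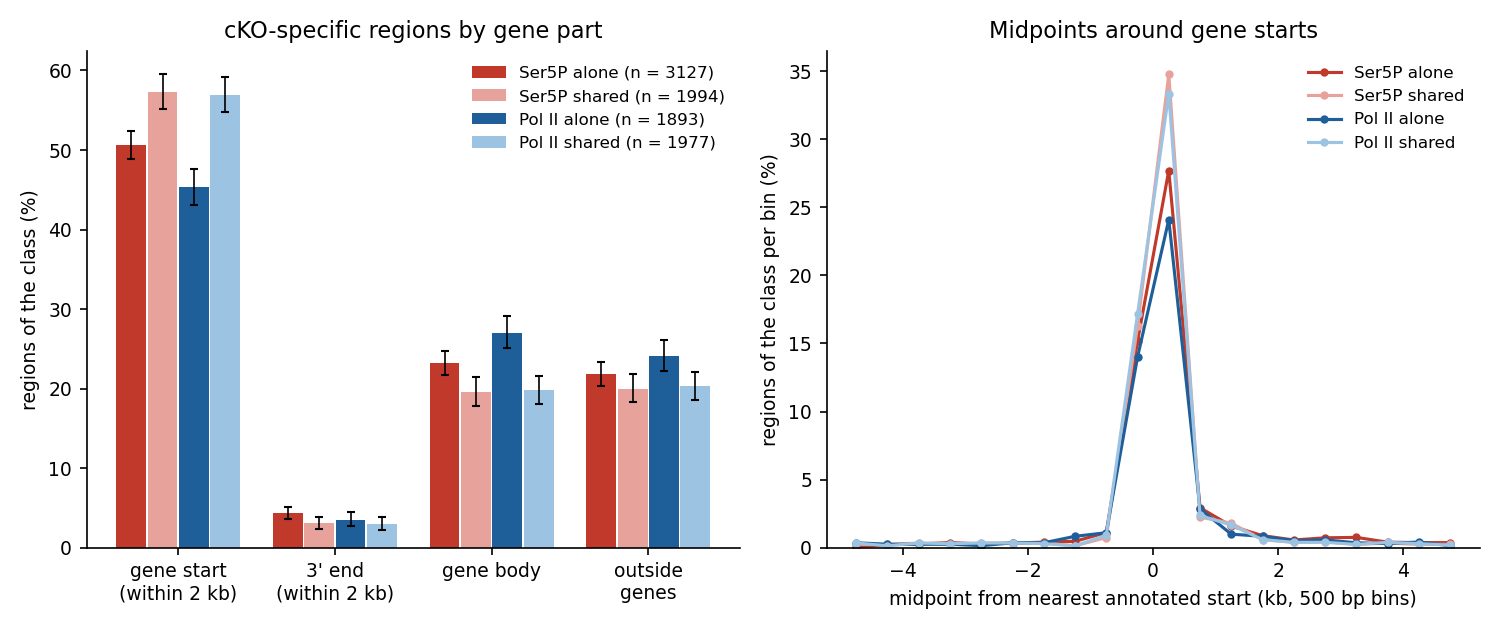
Left, percent of regions of each class at gene starts, 3' ends, gene bodies and outside genes, with exact 95% intervals. Right, percent of regions of the class whose midpoint falls in each 500 bp bin around the nearest annotated start (horizontal axis in kb). Starts hold 50.6% of Ser5P alone and 45.3% of Pol II alone, and all classes peak in the bin just downstream of the start.

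The share at starts also moved with the deposited p within each list. In the Ser5P list it was 66.9% in the decile of smallest p and 37.2% in the last. In the Pol II list it was 62.9% and 38.1%. Both lists thus held more start regions towards small p.

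Of 21887 protein-coding genes, 4615 (21.1%) carried a cKO Ser5P region within their span extended by 2 kb on each side, and 3587 (16.4%) carried a cKO Pol II region. Ser5P without Pol II was found at 2269 genes (10.4% of all), Pol II without Ser5P at 1241 (5.67%), both at 2346 (10.7%), and neither at the other 16031. Most genes of one antibody rested on a single region: 1982 of the 2269 with Ser5P only and 1152 of the 1241 with Pol II only. A gene carrying both usually carried them at the same place, since 2078 of the 2346 (88.6%) had an overlapping pair and 268 did not. Genes of the classes differed in length, with medians of 24.2 kb for Ser5P only, 25.5 kb for Pol II only, 31.1 kb for both and 14.2 kb for neither. A region in overlapping or neighbouring genes counted for each, which applied to 826 Ser5P and 600 Pol II regions. The excess of Ser5P-only over Pol II-only genes went largely with the longer Ser5P list: in lists of equal length 1842 genes had Ser5P only, 1612 Pol II only and 1975 both. With regions named primary the classes held 409, 116 and 34 genes in the same order.

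For the 17492 genes with an annotated start, the combinations could be laid out by place. Ser5P touched the start with no Pol II region in the gene at 1505 genes. Pol II touched the start with no Ser5P region at 754 genes, and both touched the start at 1319. The mixed arrangement was rarer: Ser5P at the start with Pol II elsewhere in the gene was found at 161 genes, and Pol II at the start with Ser5P elsewhere at 105. Regions away from the start were found at 345 genes with both antibodies, 346 with Ser5P only and 268 with Pol II only.

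The 10 genes with the most cKO Ser5P regions and no cKO Pol II region were Cyfip1 and Arid3b with 5 each, Bin1, Elf2, Ctsz and Galnt6 with 4 each, and Sag, Sdf4, Zfp219 and Ccdc93 with 3 each. Cyfip1 encodes a subunit of the actin-regulating WAVE complex, Bin1 a membrane-bending protein known from Alzheimer genetics, Ctsz a lysosomal cathepsin, and Galnt6 an enzyme that starts O-glycosylation. Arid3b, a DNA-binding protein of AT-rich sites, carried a Ser5P region at its start (chromosome 9, 57836729 to 57837043), 3 in its body (57820619 to 57820918, 57831387 to 57831669 and 57831670 to 57831923) and 1 at its 3' end (57790922 to 57791210). The neighbouring body regions abut, so that they mark 1 stretch. Ctsz had abutting regions across its start (chromosome 2, 174438767 to 174439045 and 174439046 to 174439365), 1 in its body (174436221 to 174436531) and 1 at its 3' end (174426676 to 174426983). Elf2, an ETS-family transcription factor, carried 4 separate regions, and the one at 51272392 to 51273108 on chromosome 3 overlapped a Pol II region of the cWT list. Ser5P regions of Sdf4 (chromosome 4, 155992875 to 155993206 and 156001285 to 156001975) and Ccdc93 (chromosome 1, 121461855 to 121462667) also overlapped cWT Pol II. The deposited p of the regions of Arid3b, Ctsz and Elf2 ran from 0.286 at Elf2 to 0.969, also at Elf2.

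The corresponding 10 genes with Pol II and no Ser5P were Irf5, Zfp608, Ppard, Camk1d and Vps35l with 3 regions each, and Prkar1b, Rapgef1, Scarb2, Dennd6b and Senp5 with 2 each. Irf5, an interferon regulatory factor that drives inflammatory genes in macrophages, carried Pol II upstream of its start (chromosome 6, 29524116 to 29524520, deposited p 0.101), over its start (29526519 to 29526917) and in its body (29536685 to 29536996). Camk1d, a calcium- and calmodulin-dependent kinase, carried 2 at its start (chromosome 2, 5713504 to 5713825 and 5714553 to 5714882) and 1 deep in its body (5417595 to 5417810). Ppard encodes a fatty acid-sensing nuclear receptor. Its 3 regions lay in the body, and the abutting pair at 28259781 to 28260018 and 28260019 to 28260256 on chromosome 17 overlapped cWT H3K27ac. The cWT Pol II list also held a region at Ppard, 0.601 to 0.984 kb from its annotated 5' end. Scarb2, a lysosomal membrane protein, and Senp5, a SUMO protease, carried Pol II across their starts. Fewer regions per gene were found in this class than in the Ser5P class, whose list is also longer.

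Genes with both antibodies reached higher counts and were mostly long. Ttc28 carried 8 Ser5P and 6 Pol II regions over 410 kb, Bach2 6 and 5, Rere 5 and 6, Chd7 5 and 6, Zmiz1 6 and 5, Otulin 5 and 5, Ssh2 4 and 8, Maml3 4 and 6, Jmjd1c 5 and 4, and Entpd1 5 and 4. Bach2, a transcriptional repressor of lymphoid and myeloid cells, had a shared pair at its 5' end (chromosome 4, Ser5P 32238452 to 32238937, Pol II 32238484 to 32239251) followed by a Ser5P region standing alone (32239474 to 32240024). Otulin, which removes linear ubiquitin chains from NF-kB signalling complexes, is 33.9 kb long, the shortest of the 10. It had 2 shared sites in its body and 1 at its start (chromosome 15, Ser5P 27630450 to 27630924, Pol II 27630457 to 27630844 and 27630845 to 27631054). Entpd1, the ectonucleotidase CD39 of homeostatic microglia, had 1 shared site, and its other regions of the antibodies were interspersed along the gene. None of the Ttc28 regions of either antibody lay at its start.

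**Figure D3:**
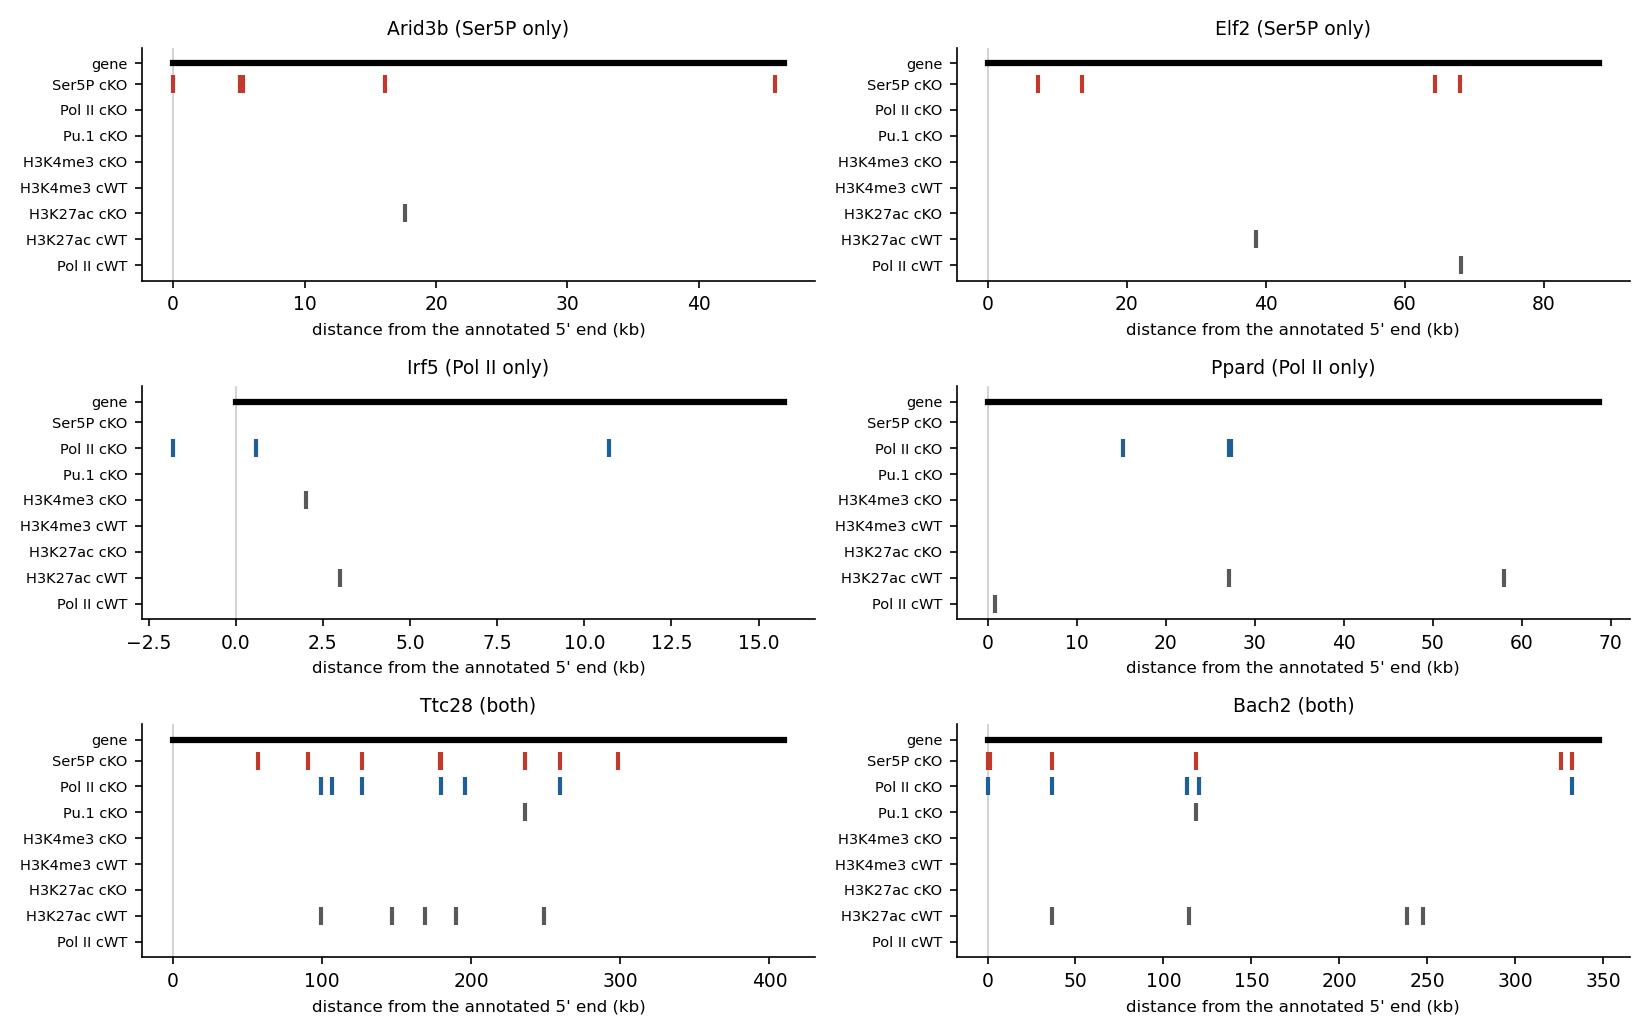
Regions along 6 genes, by distance from the annotated 5' end (kb, horizontal axis), with 1 row per list. Arid3b and Elf2 carry cKO Ser5P and no cKO Pol II, Irf5 and Ppard carry cKO Pol II and no cKO Ser5P, and Ttc28 and Bach2 carry both; each mark is 1 listed region.

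Promoter sequence is shown for 4 named genes whose promoter window (250 bases before to 50 after the start, RefSeq, GRCm38.p6) was touched by a listed region: Ctsz with Ser5P only, Irf5 and Camk1d with Pol II only, and Otulin with both. The windows are Ctsz chr2:174438990-174439289 on the minus strand, Irf5 chr6:29526375-29526674 on the plus strand, Camk1d chr2:5714713-5715012 on the minus strand and Otulin chr15:27630644-27630943 on the minus strand. Capitals mark matches on either strand to GGGCGG (the GC box, bound by Sp factors) or CCAAT. The TATA box TATAAA was searched on both strands as well, as were the AP-1 motif TGACTCA and the ETS motif AGGAAGT, and none was found in these windows.
Ctsz: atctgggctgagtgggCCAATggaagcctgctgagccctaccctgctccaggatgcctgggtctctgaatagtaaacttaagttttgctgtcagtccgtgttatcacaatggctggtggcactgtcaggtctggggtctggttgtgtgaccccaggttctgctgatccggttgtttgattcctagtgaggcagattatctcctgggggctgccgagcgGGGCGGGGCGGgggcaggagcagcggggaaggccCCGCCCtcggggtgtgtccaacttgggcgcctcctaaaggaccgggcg
Irf5: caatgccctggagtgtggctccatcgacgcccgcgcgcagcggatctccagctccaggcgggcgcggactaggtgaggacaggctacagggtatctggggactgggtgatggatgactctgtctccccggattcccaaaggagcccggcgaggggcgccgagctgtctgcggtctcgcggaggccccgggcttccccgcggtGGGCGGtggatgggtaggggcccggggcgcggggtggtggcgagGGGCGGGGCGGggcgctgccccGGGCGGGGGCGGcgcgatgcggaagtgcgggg
Camk1d: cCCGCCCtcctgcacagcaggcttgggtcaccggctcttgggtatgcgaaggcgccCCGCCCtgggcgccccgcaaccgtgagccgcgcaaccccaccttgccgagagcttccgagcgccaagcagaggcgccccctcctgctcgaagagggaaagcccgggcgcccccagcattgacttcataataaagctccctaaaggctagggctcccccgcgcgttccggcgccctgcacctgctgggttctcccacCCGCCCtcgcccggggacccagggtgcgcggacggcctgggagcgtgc
Otulin: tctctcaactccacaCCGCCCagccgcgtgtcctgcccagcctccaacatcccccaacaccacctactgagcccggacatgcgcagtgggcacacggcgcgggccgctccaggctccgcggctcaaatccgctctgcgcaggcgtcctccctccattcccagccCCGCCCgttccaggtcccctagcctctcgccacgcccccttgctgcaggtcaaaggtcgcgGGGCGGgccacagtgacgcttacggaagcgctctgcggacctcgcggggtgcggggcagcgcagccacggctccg

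Each printed window held at least 3 matches to GGGCGG. Windows of Ssh2 (a gene with both, but a window touched by Pol II only) and Arid3b (Ser5P only) were picked by the same rule and are not printed. The Arid3b window (chromosome 9, 57836435 to 57836734) held no match to any motif searched. It was 1 of 2 touched windows of that gene and met the Ser5P region (57836729 to 57837043) only at its edge. Matches in the other Arid3b window are not given. The Ssh2 window held 4 matches to GGGCGG. Irf5 held 5, with a GC content of 74.7% and 35 CpG dinucleotides, and Ctsz held 3 with a CCAAT match, a GC content of 61% and 12 CpG dinucleotides. The median GC content was 62.7% for 1462 windows with Ser5P alone, 63% for 745 with Pol II alone and 63.7% for 1155 with a shared region, against 54.7% for 17865 windows with no region of either antibody. GGGCGG was held by 73.9%, 69.3% and 73.2% of the touched windows in that order and by 46.2% of all 21238 windows. TATAAA was held by 4.51%, 5.77% and 5.28%, against 12.6% of all windows. AGGAAGT, a core of ETS sites such as those of Pu.1, was held by 10.1%, 7.25% and 8.66% (9.07% of all). CCAAT was held by 39.5%, 43.9% and 39.2% (38.2% of all). TGACTCA, the AP-1 motif, was held by 3.42%, 3.36% and 2.08% (4.66% of all). A match is a description of the letters in the window, and no test was made.

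The genes of the transcription machinery were divided between the classes. Of 36 Pol II subunits and initiation factors, 9 carried Ser5P only, 4 Pol II only and 3 both, beside 10.4%, 5.67% and 10.7% of all genes. With Ser5P only were the TATA-binding protein Tbp, the TFIID subunits Taf1 and Taf4, and the polymerase subunits Polr2d, Polr2h and Polr2i. With Pol II only were Ccnh, the cyclin partner of Cdk7, Gtf2a1, Gtf2a2 and Taf2. Cdk7 itself, the serine 5 kinase, carried both at its start (chromosome 13, Ser5P 100730655 to 100730963, Pol II 100730663 to 100730973). Of 15 serine 5 kinases, phosphatases and capping enzymes, 2 carried Ser5P only (among them the phosphatase gene Rpap2), 3 Pol II only (Ccnh, the Mediator kinase gene Cdk8 and the capping enzyme gene Rngtt) and 2 both (Cdk7 and Cdk19).

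Of 32 genes of pausing and elongation, 9 carried Ser5P only, 3 Pol II only and 6 both, beside 10.4%, 5.67% and 10.7% of all genes. With Ser5P only were Nelfa and Nelfcd, which encode subunits of the pausing complex NELF, the elongation complex genes Paf1, Ctr9, Cdc73 and Rtf1, the super elongation gene Ell2, the cyclin gene Ccnk and Tcea1. With Pol II only were Ell, Aff1 and Ccnt2. Cdk9, the kinase of pause release, carried 3 Ser5P regions and 1 Pol II region, all at its start, and a single Ser5P region (chromosome 2, 32712876 to 32713144) overlapped the Pol II region (32712878 to 32713086). Supt5, Ssrp1, Supt16 and Mllt1 were among the others with both. Immediate early genes, which are induced rapidly by many stimuli, were divided as 5, 4 and 4 of 24, beside the same shares of all genes. Egr1, Egr2, Jun, Btg2 and Rhob carried Ser5P only, and Nr4a1, Klf2, Jund and Ier5 carried Pol II only. The Jun region ran over 2 kb (chromosome 4, 95049493 to 95051658, deposited p 0.0888) and overlapped a Ser5P region of the cWT list. Fos counted as both, but its Ser5P and Pol II regions near the 3' end did not overlap.

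In the lists of homeostatic microglia genes and myeloid transcription factors, 21 of 33 and 22 of 26 genes carried a region of either antibody, beside 26.8% of all genes. Lists of no microglial theme stood nearly as high as the homeostatic genes, with 25 of 41 cytosolic ribosomal protein genes and 18 of 30 oxidative phosphorylation genes. Of 33 homeostatic microglia genes, 9 carried Ser5P only, 4 Pol II only and 8 both, beside 10.4%, 5.67% and 10.7% of all genes. Ser5P only was found at the fractalkine receptor gene Cx3cr1, the complement gene C1qc, Cst3, Tyrobp, Csf1r, Sall3, Ltc4s, Bin1 and Tmem119. The Csf1r and Ltc4s regions each overlapped a Pol II region of the cWT list. The Tmem119 region (chromosome 5, 113800224 to 113800806) lay at the locus that carries the Cre allele and overlapped a cWT H3K27ac region. Pol II only was found at the purinergic receptor gene P2ry13, Siglech, Pros1 and Mef2a. P2ry12, another purinergic receptor gene, carried 3 Ser5P and 2 Pol II regions. Tgfbr2, the receptor of the cytokine that maintains microglial identity, carried 6 and 2, with a shared pair at its start (chromosome 9, Ser5P 116174920 to 116175299, Pol II 116174879 to 116175225). Of 26 myeloid transcription factors, 8 carried Ser5P only, 2 Pol II only and 12 both. Spi1, which encodes Pu.1, had 2 Ser5P regions and no Pol II region (chromosome 2, 91084333 to 91084715 and 91096777 to 91097164). Pol II led in others: Irf2 carried 1 Ser5P and 6 Pol II regions and Runx1 carried 1 and 4.

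Inflammatory and NF-kB genes were divided evenly, with 6 Ser5P only, 6 Pol II only and 7 both of 30, beside 10.4%, 5.67% and 10.7% of all genes. The members with Ser5P only were the NF-kB regulators Nfkbia, Nfkbiz and Tnfaip3, the receptor genes Il1r1 and Il10ra, and the chemokine gene Ccl12. Those with Pol II only were the receptor genes Tlr2 and Tlr4, their adaptor Myd88, and Ccl2, Cxcl2 and Il1a. Tnf and Nlrp3 carried 2 Ser5P and 1 Pol II regions each, at their starts. Interferon response genes stood at 1, 0 and 2 of 28, below the share over all genes in each class. Housekeeping lists held more members with Ser5P only than with Pol II only: 11 against 2 of 41 cytosolic ribosomal protein genes, 9 against 4 of 30 oxidative phosphorylation genes and 8 against 1 of 30 proteasome genes. Over all genes the corresponding numbers were 2269 and 1241, and 1842 and 1612 in lists of equal length, where the gene lists were not recounted. Splicing factors stood at 4 and 3 of 30, histone genes at 1 and 2 of 23, and lysosome and phagocytosis genes at 4 and 2 of 30. These counts describe the lists, whose genes differ in length from all genes, and no test of a list was made.

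**Figure D4:**
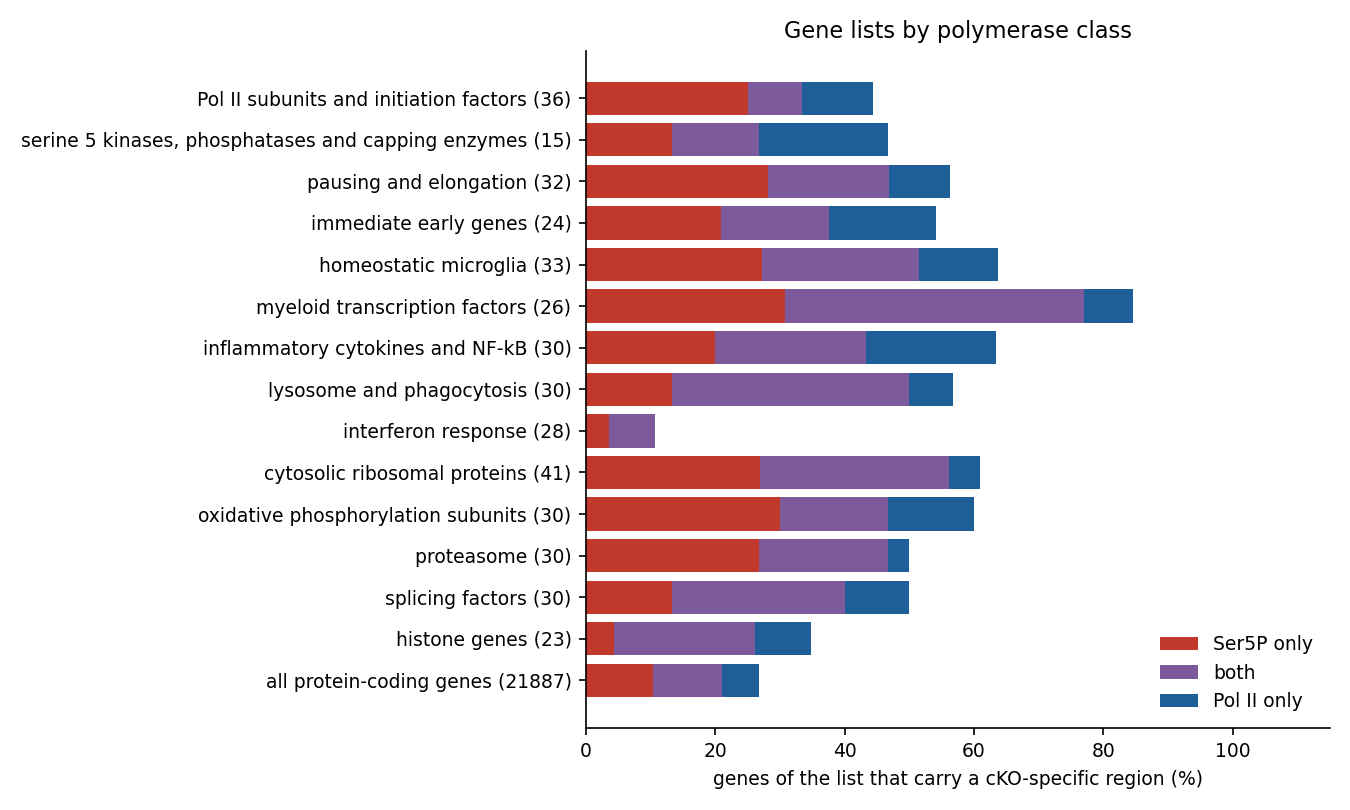
Percent of the genes of each list (horizontal axis; number of genes in brackets) that carry cKO Ser5P only, both antibodies or cKO Pol II only, with all protein-coding genes in the bottom bar. Myeloid transcription factors reach 22 of 26 genes with a region and interferon response genes 3 of 28.

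The regions standing alone also differed in the other antibodies that overlapped them. The cWT H3K27ac list, a mark of active enhancers and promoters that was specific to the control genotype, overlapped 417 Ser5P regions standing alone (11.1%, 10.1 to 12.1) and 382 Pol II regions standing alone (16.9%, 15.3 to 18.5). The difference was -5.79 points (odds ratio 0.614, 0.528 to 0.713, adjusted p = 1.43e-09 by two-sided Fisher's exact test over 6 lists). It was -5.27 points (exact test, adjusted p = 0.641) among regions named primary and -1.92 points (adjusted p = 0.133) in the 50% of each list with the smaller deposited p. Without regions under 300 bp it was -3.12 points (exact test, adjusted p = 0.00490). The cKO Pu.1 list went the other way. It overlapped 207 Ser5P regions (5.49%) and 77 Pol II regions (3.40%) standing alone, a difference of 2.10 points (odds ratio 1.65, 1.26 to 2.15, exact test, adjusted p = 4.80e-04), and 2.13 points with adjusted p = 1 among regions named primary. The Pu.1 difference was 1.78 points in the 50% of each list with the smaller deposited p (exact test, adjusted p = 0.00323). In lists of equal length, where only Ser5P regions of large p were dropped, it was 3.23 points (exact test, adjusted p = 8.20e-08).

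Neither H3K4me3 list, of a mark of active promoters, nor the cKO H3K27ac or cWT Pu.1 list passed this test. The cKO H3K4me3 list overlapped 4.48% of Ser5P and 4.37% of Pol II regions standing alone, and the cWT H3K4me3 list 2.79% and 2.56% (exact test, adjusted p = 1 and 0.935). For cKO H3K27ac the shares were 2.28% and 2.29% (exact test, adjusted p = 1). For cWT Pu.1, which has only 44 regions, 8 and 2 regions overlapped (exact test, adjusted p = 0.676). Read from the other lists, 305 of the 1017 cKO Pu.1 regions (30.0%, 27.2 to 32.9) overlapped a cKO Ser5P region and 172 (16.9%, 14.7 to 19.4) a cKO Pol II region. The corresponding shares of the cKO H3K4me3 regions were 21.6% and 16.6%.

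The polymerase lists of the control genotype overlapped the cKO lists unevenly. Of 394 regions specific to cWT Pol II, 191 (48.5%, 43.4 to 53.5) overlapped a cKO Ser5P region, and 30 (7.61%, 5.20 to 10.7) overlapped a cKO Pol II region. These 191 sites were thus listed as cWT-specific for total Pol II and as cKO-specific for Ser5P. The antibody and genotype of a list are known only from the name it was deposited under. Whether those names are right could not be checked here, which bears on every comparison of these lists, here and in the other paragraphs. Among cKO Ser5P regions, 167 of those standing alone (4.43%, 3.80 to 5.14) and 28 of the shared (1.17%, 0.779 to 1.69) overlapped cWT Pol II, against 11 of the Pol II regions standing alone (0.485%, 0.242 to 0.867). The reverse arrangement was rarer: of 127 regions specific to cWT Ser5P, 18 (14.2%, 8.62 to 21.5) overlapped a cKO Pol II region and 13 (10.2%, 5.56 to 16.9) a cKO Ser5P region. Chosen after their values were seen, examples of cKO Ser5P over cWT Pol II were the starts of Egr2, an immediate early factor (chromosome 10, 67536778 to 67537784), of the inflammasome sensor Nlrp3 (chromosome 11, 59541582 to 59541861) and of Chd4, the NuRD remodeller (chromosome 6, 125131546 to 125132020), and the body of the kinase gene Syk (chromosome 13, 52636325 to 52636694). The Nlrp3 start also carried a cKO Pol II region nearby (59542237 to 59542697), so Pol II was listed there for both genotypes. No test was made of these shares, and the rule that made a region specific to a genotype is not stated.

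**Figure D5:**
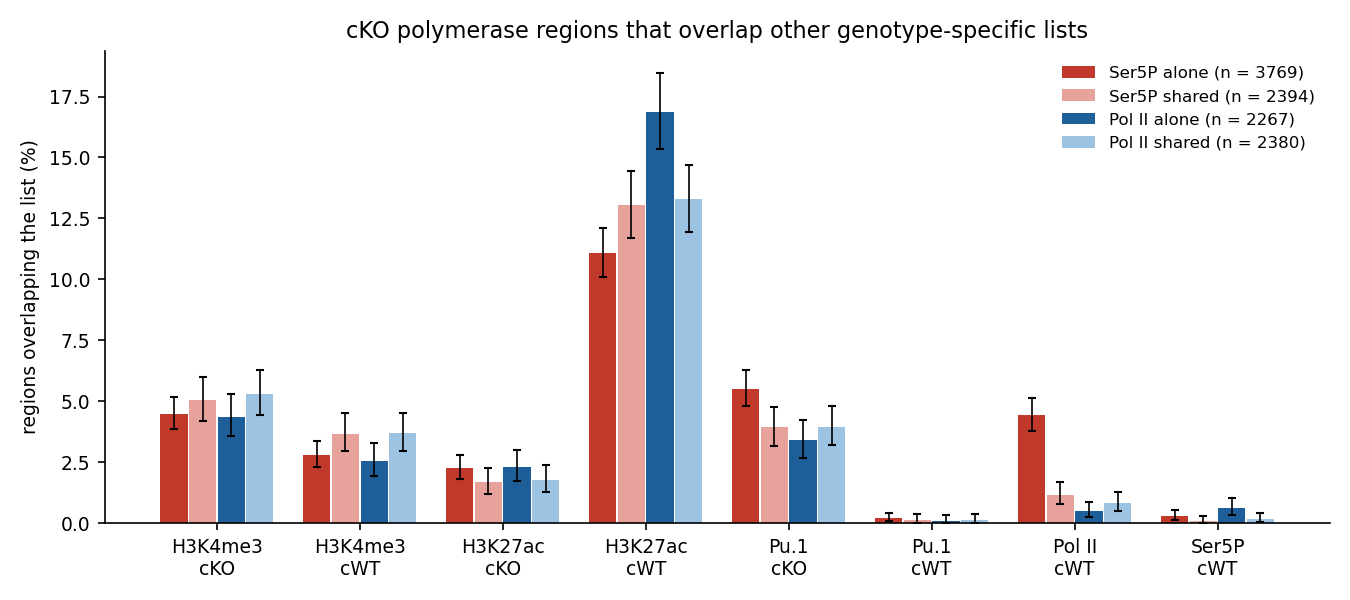
Percent of regions of each class (vertical axis) that overlap the H3K4me3, H3K27ac, Pu.1 and polymerase lists of cKO or cWT, with exact 95% intervals. cWT H3K27ac overlaps 11.1% of Ser5P alone and 16.9% of Pol II alone, and cWT Pol II overlaps 4.43% of Ser5P alone and 0.485% of Pol II alone.

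Genes of microRNAs, short RNAs that pair through a seed (bases 2 to 8) with target messages, were examined in the same way, with a region counted within 2 kb of the RefSeq hairpin. Of 1005 hairpins, 33 (3.28%) had Ser5P only, 7 (0.697%) Pol II only and 24 (2.39%) both. The microRNAs printed here were chosen after their values were seen, as known microRNAs of myeloid cells or of clusters that share a region, with RefSeq sequences on GRCm38.p6 and the seed in capitals. The first 7 had Ser5P only and the last 2 had both.
mmu-miR-17-5p: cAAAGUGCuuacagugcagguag
mmu-miR-20a-5p: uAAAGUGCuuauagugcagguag
mmu-miR-19a-3p: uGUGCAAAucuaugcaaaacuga
mmu-miR-19b-3p: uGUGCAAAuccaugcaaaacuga
mmu-miR-142a-3p: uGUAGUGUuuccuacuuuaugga
mmu-miR-21a-5p: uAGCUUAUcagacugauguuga
mmu-let-7i-5p: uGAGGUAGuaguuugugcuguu
mmu-miR-132-3p: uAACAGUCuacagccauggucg
mmu-miR-212-3p: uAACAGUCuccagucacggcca

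A single Ser5P region (chromosome 14, 115042227 to 115042549, deposited p 0.898) accounted for the hairpins of the Mir17 cluster, from 1122 bp away at Mir17 to 1878 bp away at Mir92-1. Mir17 and Mir20a share 1 seed and Mir19a and Mir19b-1 another, so these hairpins are not separate cases. The nearest cKO Pol II region to Mir17 was 94527 bp away. Mir142, a microRNA abundant in blood cells, had Ser5P 73 bp from its hairpin (chromosome 11, 87757000 to 87757326). Mir21a had it 1140 bp away (chromosome 11, 86582393 to 86582927), and Mirlet7i overlapped its Ser5P region (chromosome 10, 122985713 to 122986107). Mir132 and Mir212, which share a seed and lie side by side on chromosome 11, had a Ser5P region (75173272 to 75173690) over a Pol II region (75173298 to 75173581). Mir210 and Mir423 also had both. Mir345, Mir760 and Mir1934 were among the 7 with Pol II only, at 631, 270 and 357 bp. A region near a hairpin can belong to a host or neighbouring gene, and mature microRNA levels were not analysed here.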

How the data were processed

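CUT&Tag lists of genotype-specific regions were analysed, 1 for each of 5 antibodies and 2 genotypes (3 replicates a group, per the labels). The submitters' processing notes name HOMER 4.11, bedtools 2.30.0, MACS2 2.2.7.1 and Bowtie2 2.4.4, with the builds GRCm38 and mm10. Tool settings, the pooling of replicates and the rule for specificity are not stated there. The deposited lists give each region a score, a signal on an unstated scale, a p-value and a q-value (its adjusted form) made by the authors. Signals were not compared between lists, and p-values only ranked or filtered regions. Depth is unknown.

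Gene spans, starts, promoters and hairpins came from RefSeq tables of GRCm38.p6. Starts were those of the promoter table plus the 5' end of the gene span. The promoter table alone was used in a first run, and the span end was added after its values were seen, because that table missed the 5' ends of genes such as Bach2. Both definitions are among the alternatives. No start was used for 4395 of 21887 protein-coding genes, chromosome 18 included, and 1042 Ser5P and 777 Pol II regions within 2 kb of such genes, or on chromosomes 18 and M, were left out of the gene parts only. Shares were compared between Ser5P alone and Pol II alone by two-sided Fisher's exact tests with Benjamini-Hochberg adjustment, over 4 gene parts and over 6 lists. Odds ratios add 0.5 to each cell. Intervals are exact Clopper-Pearson at 95%.

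The members, gene lists and tests were chosen with earlier results of these data known. Named genes were the 10 per class with the most regions (for both antibodies, the largest smaller count), without predicted models, with ties by deposited p, plus up to 4 members per gene list and class, Mir137, Tmem119 and Spi1. List members named beyond these, the microRNAs, the regions of smallest p and the cWT Pol II examples were chosen after their values were seen. A gene list and some list members are not reported here. Python 3.11.15, numpy 2.4.6, pandas 2.3.3, scipy 1.17.1 and matplotlib 3.10.9 were used, and the functions were tested on simulated data.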

Additional observations from a re-analysis of the deposited data

How the results depend on the processing

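No paired analysis was possible because the lists hold no value per replicate, and leaving out each replicate in turn was not run for the same reason. Of 159 values recomputed under alternatives, 132 stayed on their side of the threshold or within the margin set for shares and counts. The 50 values of the 4 differences that passed the test (starts, bodies, cWT H3K27ac and cKO Pu.1) all kept their sign. Of the 67 values of differences that did not pass, 16 took the other sign and 1 was 0, none of them past the threshold: the 3' end difference ran from -3.31 to 1.09 points, cKO H3K27ac from -0.362 to 0.256, cKO H3K4me3 from -0.322 to 0.796, cWT H3K4me3 from -2.16 to 0.370, cWT Pu.1 from -0.0251 to 0.244 and the share outside genes from -3.10 to 0.0599.

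Restricting both lists to the regions named primary, an alternative added after seeing the data, left 7.66% of Ser5P and 22.9% of Pol II regions shared, and 409 genes with Ser5P only, 116 with Pol II only and 34 with both. It gave a start difference of 3.90 points, a body difference of -0.646 and a cKO Pu.1 difference of 2.13 (exact test, adjusted p = 1 for each), and a cWT H3K27ac difference of -5.27 (adjusted p = 0.641). The 50% of each list with the smaller deposited p gave 29.6% and 39.5% shared, 1023 genes with both, and a cWT H3K27ac difference of -1.92 points (exact test, adjusted p = 0.133). Without regions under 300 bp, 31.3% and 43.3% were shared, 1543 genes had both, and the cWT H3K27ac difference was -3.12 points (exact test, adjusted p = 0.00490). Requiring 50% of the shorter region gave 36.2% and 48.2%, and counting regions within 1 kb gave 41.7% and 54.3%. Lists of equal length gave 39.9% of Pol II regions shared, 1842 genes with Ser5P only and 1612 with Pol II only, and differences of 9.84 points at starts, -6.45 in bodies and 3.23 for cKO Pu.1 (exact test, adjusted p = 7.43e-11, 4.65e-07 and 8.20e-08). Making the lists equal dropped only Ser5P regions of large deposited p. The 50% of each list with the smaller p gave 5.44, -3.77 and 1.78 points for the same differences (exact test, adjusted p = 0.0143, 0.0215 and 0.00323). Counting the other antibody in either genotype, also added, gave 41.6% of Ser5P regions shared.

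The difference outside genes (exact test, adjusted p = 0.0870) passed the threshold with all genes (-2.72 points, adjusted p = 0.0187), either gene end (-2.19, 0.0414), the other antibody in either genotype (-2.84, 0.0291) and windows of 500 bp (-3.10, 0.0292), which took the body difference to -2.40 (0.102). With the starts of the promoter table alone the start difference was 5.56 points (exact test, adjusted p = 5.37e-04), and with the 5' end of the gene span alone 5.83 (2.30e-04). The causes were not tested. Without depth or values per replicate, variation between animals could not be estimated.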
